A study of Bos taurus with 13 samples.

Results

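In bovine mesenchymal stem cells, 46 of the 16595 genes measured had higher transcript levels after 6 h at 40.5 °C and lower levels after 3 days at 40.5 °C, each against a control at 37 °C. They were chosen on the measured values themselves. A gene entered when its mean normalised read count over the 13 libraries was from 50 to under 20000, which 11182 genes met, and when 3 differences of group means of log2(value + 1) met set limits. These were a difference of at least 0.4 at 6 h, a difference of at most -0.4 at 3 days, and an absolute difference under 0.5 after heat and recovery. The direction and size of these differences are therefore a description of what was selected and not a test of it.

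The cells were primary cultures of bovine umbilical cord at passages 2 to 4, adherent multipotent stromal cells, all kept in low-glucose medium with 10% foetal bovine serum and treated from a day after seeding. Polyadenylated RNA was sequenced from cells at 37 °C for 6 h (6 h control, n = 3), at 40.5 °C for 6 h (6 h heat, n = 3), at 37 °C for 3 days (3-day control, n = 2) and at 40.5 °C for 3 days (3-day heat, n = 3). A further group had 6 h at 40.5 °C and then 66 h at 37 °C (recovery, n = 2), and the design asked which responses to heat are immediate and which are stable or delayed. The labels do not say whether replicates came from separate animals or cultures, so p-values measure only the spread between these libraries, which may be technical. Recovered depth ran from 14859428 to 39117065 reads per library. Only the 3 groups with n = 3 have a replicate 3, and in many genes it stood apart from replicates 1 and 2. The 3-day comparison thus had a replicate 3 in its heated group only. Values within replicates 1 and 2 are given beside the pooled ones for the members as a set and for some of those described singly. The files list genes by Ensembl identifier without names, and none of the 16595 identifiers was matched in the RefSeq gene table used (assembly ARS-UCD2.0). The members are therefore called by number, in the order of the smaller of their 6 h rise and 3-day fall, and neither their functions nor the marker genes of the labelled cell type were examined here.

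A rise in temperature unfolds proteins, and cells answer within minutes to hours with a heat shock response. In it the transcription factor HSF1 drives genes for chaperones, which refold or clear damaged proteins, while the output of many other genes is held down. When heat persists, the first wave of transcripts commonly subsides and the cell settles into a changed growth and metabolic state. When heat ends, the first wave also subsides. Stromal cells in culture change further with time, as they leave the lag that follows seeding and become denser, so that a control of each duration is needed to read an effect of heat.

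Of the 11182 genes in the range of mean values, 1482 were at least 0.4 higher at 6 h of heat and 2367 at least 0.4 lower at 3 days. Both conditions were met by 62 genes, and 16 of these were left out by the recovery condition, 8 on each side. The opposite pair of limits, at most -0.4 at 6 h and at least 0.4 at 3 days, was met by 71 genes. Among the 46 members the 6 h difference ran from 0.40 to 2.88 with a median of 0.57, against a median of -0.01 over the genes in the range. The 3-day difference ran from -2.48 to -0.40 with a median of -0.63, against 0.01 over the genes in the range. Only 3 members were 1 or more higher on the log2 scale at 6 h, and 13 were 1 or more lower at 3 days. The members were less abundant than the genes around them: their mean value had a median of 198 normalised reads, against 671 over the genes in the range, and the highest was 3417.

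**Figure D1:**
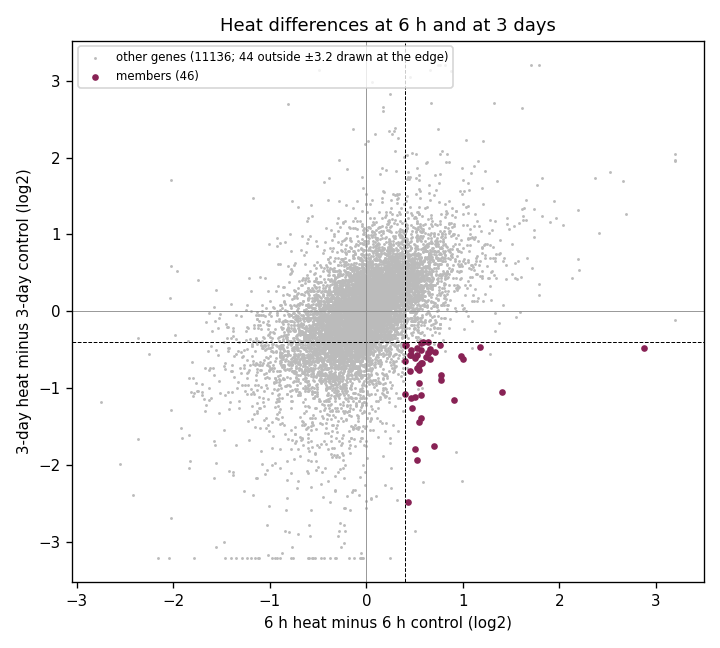
Difference between 6 h heat and 6 h control (x axis, log2) against the difference between 3-day heat and 3-day control (y axis, log2), 1 point per gene with a mean value in the range of the rule; dashed lines stand at 0.4 and -0.4. The 46 members lie in the lower right corner, most of them close to the lines, and the grey points among them are the genes left out by the recovery condition.

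Many members lay close to the limits. The nearest inside the 6 h limit had a difference of 0.402 and the nearest outside 0.3993. At the 3-day limit these values were -0.4004 inside and -0.3866 outside, and at the recovery limit 0.4947 inside and 0.5184 outside, as absolute differences. At the lower limit of the mean value they were 50.54 and 49.98 normalised reads.

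Member 1, ENSBTAG00000019612, had the largest opposed differences. In replicate order, the 6 h control libraries had 173, 174 and 399 normalised reads and the 6 h heat libraries 577, 593 and 658. They were 632 and 581 in the 3-day control, 401 and 467 in the recovery group, and 255, 254 and 381 in the 3-day heat group. Every 6 h heat library was above every 6 h control library, and every 3-day heat library was below every 3-day control library, while the recovery libraries lay between the 3-day control and the 3-day heat libraries. The 6 h difference was 1.41 on the log2 scale (SE 0.28) and the 3-day difference -1.05 (SE 0.31). Cells at 37 °C for 3 days thus had about the level seen after 6 h of heat, 606 ± 35.8 (SD, n = 2) against 609 ± 43.0 (SD, n = 3). The 6 h control had 249 ± 130.0 (SD, n = 3), with replicate 3 well above replicates 1 and 2, and without that library the 6 h difference was 1.80.

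The most abundant member was number 15, ENSBTAG00000009302. It had 3549, 3694 and 2083 normalised reads in the 6 h control and 5283, 5105 and 3181 in the 6 h heat group. At 3 days it had 3669 and 3353 in the control, 4442 and 3759 after recovery, and 2256, 2432 and 1609 under heat. Replicate 3 was the lowest library of each of its groups, so the 6 h groups overlapped although each heat library was above the control of the same number. The 3-day groups did not overlap. Its differences were 0.55 (SE 0.25) at 6 h, -0.76 (SE 0.27) at 3 days and 0.22 (SE 0.30) after recovery.

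Member 30 had by far the largest 6 h difference, 2.88 (SE 0.17). Its values were 77.0, 72.0 and 53.9 in the 6 h control and 512, 559 and 432 in the 6 h heat group, an increase seen in each replicate number. At 3 days they were 157 and 215 in the control, 166 and 144 after recovery, and 125, 130 and 144 under heat. The 3-day heat libraries were all below the control libraries, but by a much smaller step, -0.47 (SE 0.19). The 3-day control stood 1.45 above the 6 h control on the log2 scale, so after 3 days of heat the level, 133 ± 9.63 (SD, n = 3), was still above that of the 6 h control, 67.6 ± 12.2 (SD, n = 3).

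The largest 3-day difference, -2.48 (SE 0.70), was that of member 39, with 82.4 and 128 normalised reads in the 3-day control and 19.9, 30.0 and 8.91 under 3 days of heat. It was a low gene with 7 reads in its poorest library, and its entry at 6 h rested on replicate 3. The 6 h values were 45.7, 49.9 and 8.02 in the control and 43.0, 51.6 and 21.7 under heat, a difference of -0.02 within replicates 1 and 2 and 1.33 in replicate 3. A 6 h difference above the limit was therefore seen in replicate 3 only.

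Member 5 had a moderate 6 h difference and a large one at 3 days. Its values were 615, 601 and 367 in the 6 h control, 775, 798 and 935 in the 6 h heat group, 631 and 586 in the 3-day control, 477 and 442 after recovery, and 199, 194 and 150 in the 3-day heat group. Neither pair of groups overlapped. The differences were 0.70 (SE 0.18) at 6 h and -1.75 (SE 0.20) at 3 days, and within replicates 1 and 2 they were 0.37 and -1.62, the first of which is under the limit of 0.4. In absolute terms 3 days of heat left it at 181 ± 26.9 (SD, n = 3), against 528 ± 139 (SD, n = 3) in the 6 h control.

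Member 2 showed the replicate 3 offset most plainly among the leading members. It had 291, 246 and 94.0 normalised reads in the 6 h control, 471, 421 and 226 in the 6 h heat group, and 172, 157 and 54.7 in the 3-day heat group. The 3-day control had 259 and 247, and the recovery group 227 and 224. Within each replicate number the 6 h heat library was the higher, but replicate 3 of the heat group was below replicates 1 and 2 of the control, so the 6 h groups overlapped. The differences of 0.91 (SE 0.48) and -1.15 (SE 0.54) became 0.73 and -0.62 within replicates 1 and 2. The fit that gave these SEs has no term for the replicate number, so the offset of replicate 3 adds to them.

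**Figure D2:**
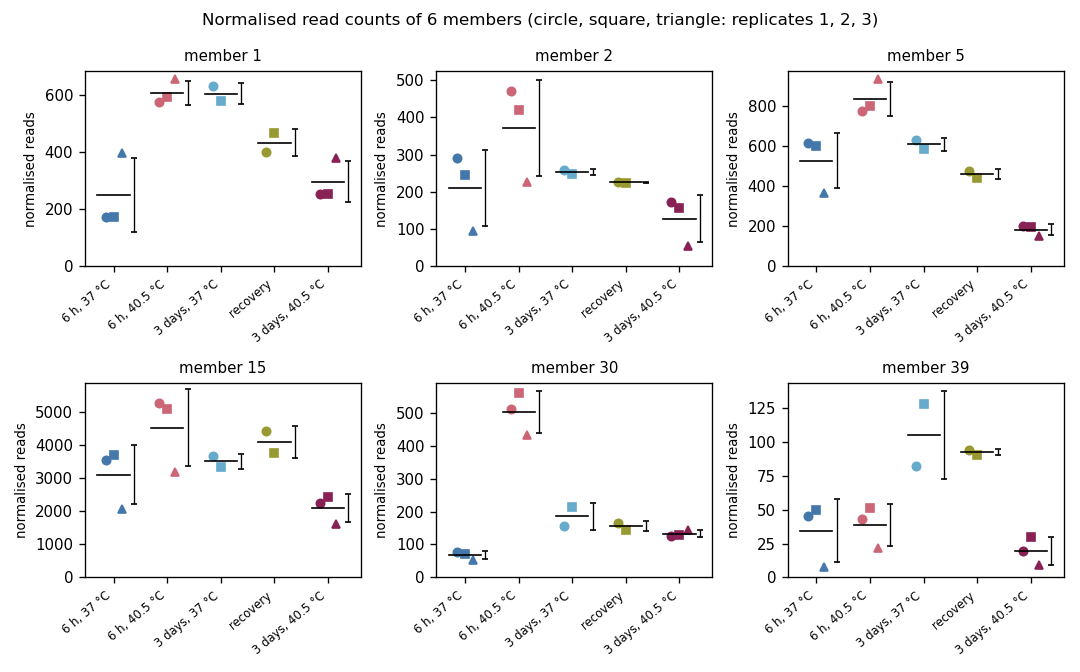
Normalised read counts of members 1, 2, 5, 15, 30 and 39 (y axes, from 0) in the 5 groups; each symbol is a library, the horizontal line is the group mean and the bar to its right is the SD. Replicate 3, drawn as a triangle, is the lowest library of every group that has one in members 2, 15 and 39 and the highest in member 1.

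Some members had the same pattern with little spread. Member 29 had 193, 196 and 194 normalised reads in the 6 h control, 264, 302 and 247 in the 6 h heat group, 468 and 503 in the 3-day control, 406 and 396 after recovery, and 194, 211 and 202 in the 3-day heat group. After 3 days of heat its level equalled that of the 6 h control within the spread, at 202 ± 8.62 and 194 ± 1.65 (SD, n = 3 each), while the 3-day control was at 485 ± 24.8 (SD, n = 2). The differences were 0.47 (SE 0.09) at 6 h and -1.26 (SE 0.10) at 3 days. Member 43 lay close to both limits, with 672, 586 and 651 against 841, 835 and 844 at 6 h, and 872 and 764 against 594, 588 and 618 at 3 days. Its differences were 0.40 (SE 0.07) and -0.44 (SE 0.08), its groups did not overlap in either comparison, and its recovery libraries, 824 and 782, were within the range of the 3-day control.

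Member 24, the next in abundance after member 15, had the widest swing with time among the abundant members. Its values were 1778, 1829 and 1556 in the 6 h control and 2854, 2713 and 1851 in the 6 h heat group. They were 6416 and 4805 in the 3-day control and 6204 and 5553 after recovery, but 2909, 3026 and 1925 under 3 days of heat. The 3-day heat level was therefore above that of both 6 h control and, in its mean, 6 h heat, and the negative difference of -1.11 (SE 0.22) was set against a control that was 1.69 above the 6 h control.

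In 25 of the 46 members every 6 h heat library was above every 6 h control library, a state that 21.9% of the genes in the range were in. In 41 members every 3-day heat library was below every 3-day control library, against 33.4% of the genes in the range. Both held in 23 members, against 1.49%, and 3 members had overlap in both comparisons. In limma's moderated test over 13684 genes with Benjamini-Hochberg adjustment, 19 members passed the adjusted-p threshold of 0.05 as higher at 6 h, where 14.8% of tested genes did. With the replicate number as a block 40 members passed, where 20.8% of tested genes did. For a lower level at 3 days 25 members passed (20.3% of tested genes), and 13 passed in both comparisons (0.351%), or 30 with the block (1.16%). Since the rule used both comparisons, these counts show only how many of the selected differences exceeded the spread between libraries, and nothing is read from them about the members. After recovery 0 members passed in limma, edgeR or DESeq2, where 0.797% of tested genes passed in limma. With the replicate block 1 member passed (5.69% of tested genes), and with replicates 1 and 2 only 7 did (13.1%). At an unadjusted p under 0.05 each of these tools had 1 member, where 11.1%, 10.8% and 10.4% of tested genes passed in limma, edgeR and DESeq2. The rule itself kept this difference small, so nothing is read from these counts.

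**Figure D3:**
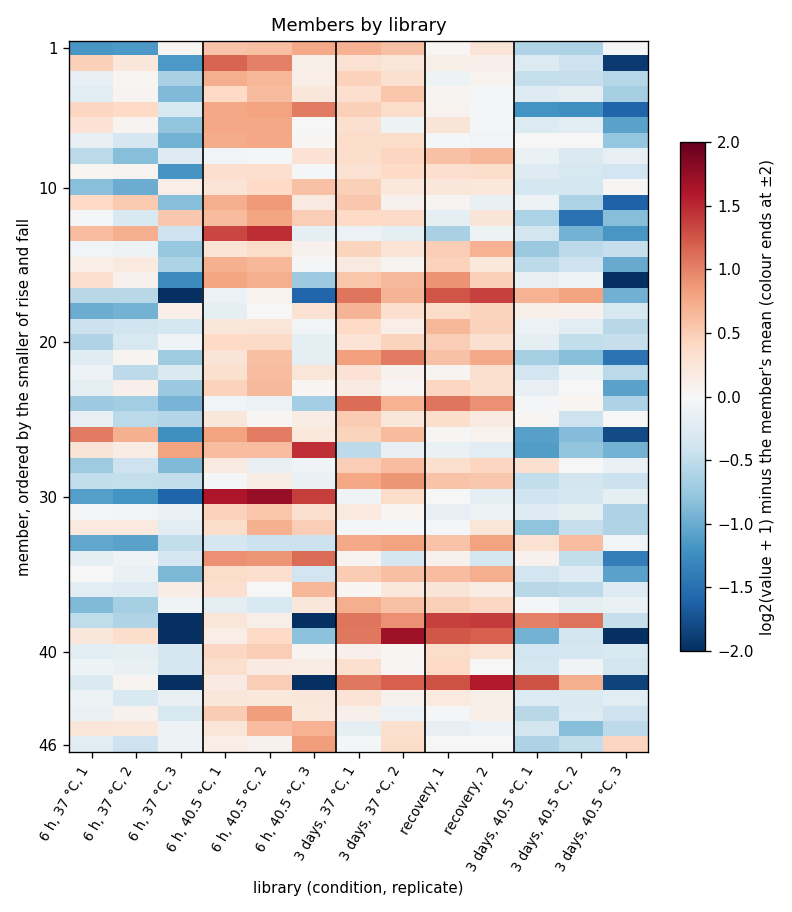
Log2(value + 1) of each member minus its mean over the 13 libraries (colour, ends at ±2), with members as rows in the order of the smaller of rise and fall and libraries as columns grouped by condition. The 6 h heat columns are mostly red against the 6 h control and the 3-day heat columns mostly blue against the 3-day control and recovery columns, and replicate 3 columns hold the darkest blue cells.

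The spread within groups was larger in the members than around them. The within-group SD on the log2 scale had a median of 0.31 in the members and 0.14 over the genes in the range. Within replicates 1 and 2 it was 0.14 and 0.09. Averaged over the groups that have a replicate 3, its level was below that of replicates 1 and 2 in 35 of 46 members, with a median of -0.24 and a lowest value of -2.92. Over the genes in the range 49.2% were below, with a median of 0.00. Replicate 3 was the lowest library in each of these 3 groups in 21 members (45.7%, against 19.6% of the genes in the range) and the highest in each in 4 (8.7%, against 20%). In limma with a term for replicate 3, 20 members passed the adjusted-p threshold of 0.05 as lower in replicate 3 (15.9% of tested genes) and 7 as higher (15.5%). This is not independent of the rule, because a low replicate 3 lowers the mean of the 3-day heat group and not that of its control.

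Member 42 was the extreme case. It had 28.3, 36.0 and 3.44 normalised reads in the 6 h control, 39.0, 49.1 and 4.56 in the 6 h heat group, and 85.6, 57.7 and 8.91 in the 3-day heat group, the lowest of these being 3 reads. The 3-day control had 72.9 and 80.8. Its 3-day difference was -1.07 (SE 1.14) with all libraries and -0.12 within replicates 1 and 2. Member 38 likewise went from -0.44 to 0.06, and was the only member whose 3-day difference changed sign when replicate 3 was set aside.

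Over all members, setting replicate 3 aside left the middle of the distribution where it was. The median 6 h difference was 0.57 within replicates 1 and 2 and 0.59 in replicate 3 alone, and the median 3-day difference within replicates 1 and 2 was -0.61. The 6 h difference was above 0 in 45 of 46 members within replicates 1 and 2 (against 48.8% of the genes in the range) and in 44 in replicate 3 (against 47.5%). The 3-day difference within replicates 1 and 2 was below 0 in 45 (against 48.6%). All these libraries were used to choose the members, so the medians and directions are a description and not a test. The full rule was met within replicates 1 and 2 by 28 of the 46, against 0.42% of the genes in the range. Of the other 18, 10 missed the 3-day limit only, 7 the 6 h limit only and 1 missed both. In these 18 the mean offset of replicate 3 had a median of -0.65, and in the 28 it was -0.16. Applied to replicates 1 and 2 alone, the rule chose 50 genes, so 22 of them were not among the members.

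**Figure D4:**
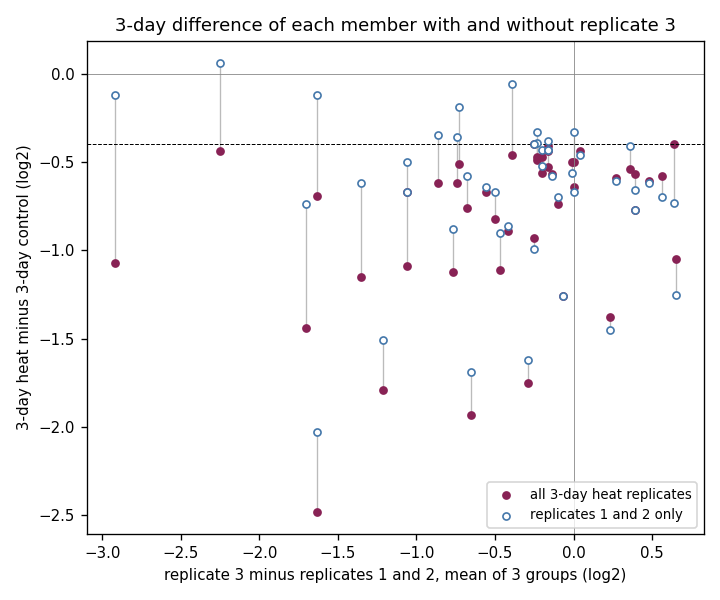
Mean offset of replicate 3 from replicates 1 and 2 over the groups with n = 3 (x axis, log2) against the 3-day heat difference of each member (y axis, log2), with all 3-day heat replicates (filled) and within replicates 1 and 2 (open), joined by a line; the dashed line stands at -0.4. Members far to the left move up by the most when replicate 3 is set aside, and 11 open points lie above the dashed line.

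To read the differences in libraries that had not chosen the genes, the rule was applied without all libraries of 1 replicate number, and the left-out libraries were then compared with each other. Without replicate 1 the rule chose 61 genes, 29 of them members. In the left-out replicate 1 libraries, 57 of the 61 (93.4%) were higher under 6 h of heat, against 48.5% of the genes in the range, with a median difference of 0.38. At 3 days 48 of them (78.7%) were lower under heat, against 49.1%, with a median of -0.44. Both held in 45 genes (73.8%), against 14.5%. Without replicate 2 the rule chose 60 genes, 35 of them members, and in the left-out replicate 2 libraries 53 (88.3%) were higher at 6 h and 52 (86.7%) lower at 3 days, with medians of 0.48 and -0.47. Both held in 46 genes (76.7%), against 14% of the genes in the range.

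Without replicate 3 the rule chose 50 genes, 28 of them members. In replicate 3, 39 of these (78%) were higher at 6 h of heat, against 47.5% of the genes in the range, and the median was 0.33. The 3-day difference could not be read there, since the 3-day control has no replicate 3. In the libraries that chose the genes the median 6 h difference was 0.53, 0.52 and 0.54 without replicates 1, 2 and 3, and the median 3-day difference -0.66 and -0.70 without replicates 1 and 2, each farther from 0 than in the left-out libraries. The genes chosen shared a library of each kind per replicate number, so the counts carry no p-value. The difference after recovery in the left-out libraries was above 0 in 27 of 61 genes for replicate 1 (44.3%, against 49.4% of the genes in the range) and in 28 of 60 for replicate 2 (46.7%, against 48.7%), with medians of -0.05 and -0.03. At least 0.4 in absolute size was reached by 12 genes for replicate 1 (19.7%, against 10.6% of the genes in the range) and by 16 for replicate 2 (26.7%, against 14.3%). Recovery differences of this size were thus a larger share of the genes chosen than of the genes in the range, on either side of 0. Each of them sets a single library against a single library. The members also had a larger spread within replicates 1 and 2, with a median SD of 0.14 against 0.09 over the genes in the range. The part played by this spread was not tested.

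**Figure D5:**
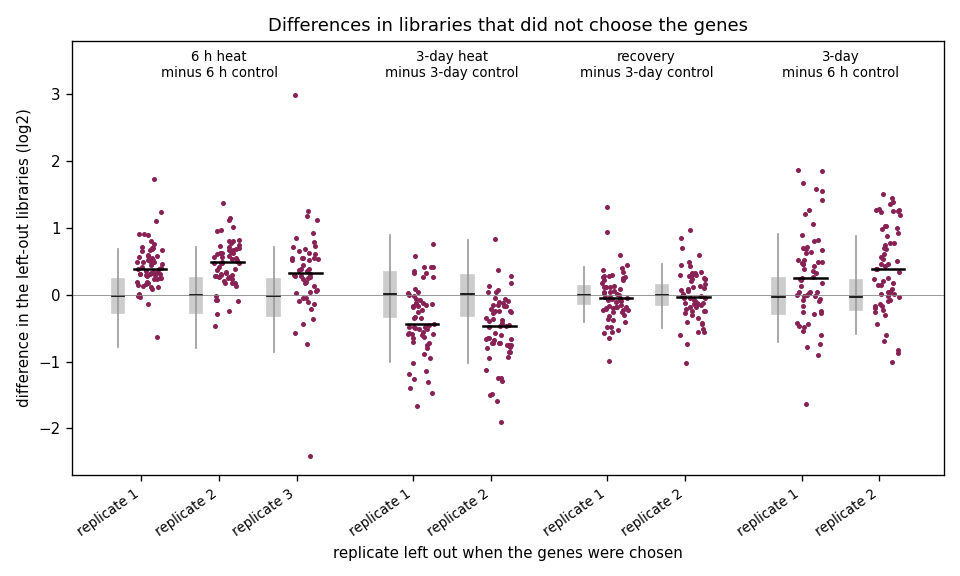
Differences in the left-out libraries (y axis, log2) for genes chosen without them, by comparison and by the replicate left out (x axis); each point is a gene and the black bar is their median, and the grey box, line and tick on the left give the quartiles, the 5th to 95th percentiles and the median over the genes in the range. The points lie mostly above 0 for 6 h heat and mostly below 0 for 3-day heat, and around 0 for recovery.

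The controls of the members also differed between 6 h and 3 days. The 3-day control was above the 6 h control in 42 of 46 members, against 46.5% of the genes in the range, with a median difference of 0.66. In 13 members it was higher by 1 or more, against 3.83%. Replicate 3 of the 6 h control was below replicates 1 and 2 in 32 of 46 members, against 47.5% of genes in the range. Its median offset was -0.32, against 0.02 in the range, and the 3-day control has no replicate 3. A low replicate 3 there raises the difference between the controls. This comparison also uses the control libraries of the rule. A low 6 h control or a high 3-day control helps a gene to enter, so the choice of members bears on it. In left-out libraries, which carry no such choice, the 3-day control was above the 6 h control in 40 of 61 genes (65.6%, against 46.6%) for replicate 1, with a median of 0.25. For replicate 2 it was above in 43 of 60 (71.7%, against 46.7%), with a median of 0.38. The higher level after 3 days at 37 °C was thus seen in most, but not all, of the genes chosen.

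The rule allowed few orders of the group means, so the counts of these orders are a description. The 6 h control and 3-day heat could not be highest, and 6 h heat and the 3-day control could not be lowest. The limits nearly kept recovery from being lowest as well. The 6 h heat group was the highest of the 5 in 26 members, against 22.8% of the genes in the range. The 3-day control was highest in 10 (against 13.4%) and the recovery group in 10 (against 17.5%). The lowest group was 3-day heat in 28 members (against 24.2%) and the 6 h control in 18 (against 17.9%). In 21 members 6 h heat was the highest and 3-day heat the lowest, the pattern of members 2 and 5. In 13 members the 6 h control was the lowest and the 3-day control or recovery the highest, the pattern of members 24 and 29. In these the 6 h heat level lay between the 6 h and 3-day controls, and the 3-day heat level lay above the 6 h control and below the 3-day control, so that the heated groups lay closer together than the controls did. For many members neighbouring groups in this order did not differ beyond their spread, as with 6 h heat and the 3-day control in member 1. The 3-day control and recovery groups have no replicate 3, so an offset of replicate 3 bears on these orders. Member 38 is among the 13, but within replicates 1 and 2 its 3-day heat level was not below the 3-day control (difference 0.06).

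Only 4 members had a 3-day control below the 6 h control. In member 27 the 6 h values were 116, 108 and 170 in the control and 149, 150 and 268 under heat, and the 3-day values were 66.8 and 87.2 in the control and 44.1, 55.5 and 49.7 under heat. Its 3-day control was 0.74 lower than its 6 h control on the log2 scale, so heat at 3 days added to a lower level already present at 37 °C. The same direction was seen in member 13, at 53.8 and 51.3 in the 3-day control against 90.3, 97.3 and 43.6 in the 6 h control.

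Compared directly under heat, 3 days was below 6 h in 40 of 46 members, against 50.7% of the genes in the range, with a median difference of -0.79. The rule favours a high 6 h heat level and a low 3-day heat level, so the choice of members bears on this. In left-out libraries 3 days was below 6 h in 49 of 61 genes for replicate 1 (80.3%, against 50.9%), with a median of -0.59. For replicate 2 it was below in 46 of 60 (76.7%, against 51.4%), with a median of -0.63. The 3-day heat group was below the 6 h control in 28 members (60.9%), against 49.3% of the genes in the range. The recovery group was within 0.2 of the 3-day control, on the log2 scale, in 22 members (47.8%), against 68.5% of the genes in the range. It was above the 3-day heat group in all 46, which the limits of the rule nearly fix. Against the 6 h heat group it was lower in 27 members (58.7%, against 50.6% of the genes in the range) and higher in 19, with a median difference of -0.09. Replicate 3 of the 6 h heat group was below replicates 1 and 2 in 33 of 46 members, against 51.9% of genes in the range. Its median offset was -0.28, against -0.01 in the range. The recovery group has no replicate 3, so this offset bears on the difference from 6 h heat. The recovery and 3-day heat differences share the 3-day control libraries, so their values are given side by side and not related to each other. In member 8 the recovery libraries, at 819 and 872, were above the 3-day control, at 701 and 737, and the 3-day heat libraries, at 498, 447 and 488, below it.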

How the data were processed

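Polyadenylated RNA was sequenced from 13 libraries. The submitters' processing notes name cutadapt, STAR, HTSeq and DESeq and the build ARS-UCD1.2, with no versions or roles; annotation and strand setting are not given in the sources used here. Going by the table's name and these notes, the authors scaled read counts with DESeq, and the deposited columns hold this normalised signal for each library. In each library 100% of values were whole multiples (within 0.01 reads) of a single step, so whole reads were recovered. Depth limits precision most in the lowest members, one with 3 reads in a library.

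The rule was applied to log2(value + 1). Standard errors and calls come from limma 3.58.1 (R 4.3.3) with a variance trend, fitted to 5 group means over genes with a value of at least 10 in at least 2 libraries (13684 genes, 8 residual degrees of freedom), with two-sided p-values and Benjamini-Hochberg adjustment. As alternatives, edgeR 4.0.16 and DESeq2 1.42.0 were run on recovered reads. They called 4356 and 4565 genes at 6 h and 5538 and 5658 at 3 days, where limma called 4311 and 5531. Other alternatives were pseudocounts, filters, scalings, array weights, a replicate block and left-out libraries. The limma procedure was tested on simulated data.

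The labels state no shared batch for a replicate number. Deviations from the group means of same-numbered libraries correlated with r of 0.51, 0.50 and 0.72 between the 6 h groups. Between the 3-day groups r was 0.02, and between recovery and the 3-day control it was 0.08. The criterion of r above 0.1 was met at 6 h and not at 3 days or for recovery. It cannot decide whether the numbers paired the libraries. Within a group, an offset of replicate 3 shifts the group mean and so the deviations of the other libraries the opposite way. Such an offset shared by the 6 h groups can alone give a positive r at every number. The 3-day control has no replicate 3, so the low r there does not show that pairing was absent. The 3-day heat libraries also correlated with the same-numbered libraries of both 6 h groups, with r from 0.27 to 0.51, under the same limit. Neither recovery nor the 3-day control has a replicate 3, so no such offset enters their r of 0.08. Each of these groups has only 2 libraries.

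The rule for describing genes singly was the 12 members with the largest smaller change, the 8 most abundant, and those nearest the limits, with at most 2 identifiers printed. Members 13, 27, 29, 30 and 38 were chosen after their values were seen. Members 39 and 42 met the rule as nearest inside the lower limit of the mean value, but their values had also been seen. The members and comparisons were chosen with earlier results of these data known. Prepared lists of pathway and marker genes could not be applied without gene names and are not used here.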

Additional observations from a re-analysis of the deposited data

How the results depend on the processing

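The rule chose 46 genes, and from 39 to 55 under other pseudocounts (0.5 and 8), scalings (upper quartile, quantile, TMM), group medians in place of means, or replicates 1 and 2 only. The genes themselves changed more than these totals. Of the 46, only 28 were among the 50 chosen by group medians, and 28 among the 50 chosen within replicates 1 and 2. The other pseudocounts and scalings kept from 38 to 46 of them. A mean value from 10 gave 106 genes, and limits of 0.6 and -0.6 gave 7, all among the 46. Leaving out single libraries gave from 38 to 117 genes. The number was 117 without replicate 3 of the 6 h heat group, 93, 79 and 76 without replicates 3, 1 and 2 of the 6 h control, and at most 55 without any other library. Of the 46, 40 were among the 117, and 29 among the 93. For the number of members higher at 6 h, array quality weights gave 38, the replicate block 40 and replicates 1 and 2 only 37, in place of 19. For both comparisons together these gave 27, 30 and 29 in place of 13, and a fit of only the groups compared gave 7. The shares of all tested genes rose with the block as well. They were 20.8% at 6 h and 1.16% in both comparisons, in place of 14.8% and 0.351%. Leaving out single libraries gave from 9 to 33 members lower at 3 days, with 9 and 13 when replicate 1 or 2 of the 3-day control was left out, and from 5 to 18 in both comparisons, with 5 and 7 for the same libraries. The control was then a single library, assumed to vary like the other groups. After recovery the replicate block gave 1 member (5.69% of tested genes) and replicates 1 and 2 only gave 7 (13.1%), in place of 0 (0.797%). The block moved the 3-day count from 25 to 34 members. The cause of these shifts was not tested. Where no share of all tested genes is given beside a count, nothing is read from it about the members. For the 19 members picked by rank, 0 of 760 recomputed differences changed sign, and 7 moved by more than the within-group SD. Many of the 760 could not move, because the library left out was not part of the comparison. An offset of replicate 3 also widens the SD used as the measure. Members 38 and 39 were not among the 19, and within replicates 1 and 2 they changed sign, at 3 days and at 6 h respectively. With limits of 0.6 and -0.6, 11 of 12 genes chosen without replicate 1, and 11 of 14 without replicate 2, had both directions in the left-out libraries. Without replicate 3, 8 of 12 (66.7%) were higher at 6 h in replicate 3, against 39 of 50 (78%) at the limits of 0.4 and -0.4. The search of promoter words was not run, since no promoter table was used here. Each count rests on log2 values, and below about 30 reads, as in the poorest libraries of members 16, 39 and 42, counting error adds to the spread.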
